A study of Homo sapiens with 12 samples.

Results

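The 10 genes described here encode plasma membrane carriers of amino acids, or the chain that anchors such carriers, that belong to the amino acid response of stressed cells: SLC7A11, SLC7A5, SLC7A1, SLC3A2, SLC1A4, SLC1A5, SLC38A1, SLC38A2, SLC6A9 and SLC43A1. They were chosen by symbol for their role, and the rule holds no threshold on measured values, although earlier results of these data were known when they were chosen. All 10 were found among the 23284 symbols of the first experiment and among the 12421 symbols of a second experiment with knockout cells. Of these, 9 passed the filter on low values in the first experiment, where SLC7A11 averaged under 1 FPKM, and 10 passed it in the knockout experiment.

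The study asked which messenger RNAs move onto or off ribosomes when STING, the adaptor of cytosolic DNA sensing, is expressed in HEK293 cells, a line derived from human embryonic kidney, and whether the kinase PERK takes part. RNA of sucrose gradient fractions with ribosomes was measured in 12 libraries, 2 for each of 6 groups, 24 h after transfection with 5 ug of plasmid. In the first experiment STING plasmid was compared with empty vector in HEK293 cells with no edit named. In the knockout experiment 4 groups were PERK knockout cells with STING, PERK knockout cells with vector, wild-type cells with STING and wild-type cells with vector.

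All cells were of 1 line, received a plasmid and were treated with cycloheximide, which holds ribosomes on RNA, before lysis. In all groups polyadenylated RNA was copied and amplified by the Smart-seq2 protocol. The sources used here do not say how PERK was knocked out, whether the knockout cells are 1 clone, or that replicate libraries came from separate cultures, so p-values measure only the spread between libraries, which may be technical. Values are FPKM, fragment numbers divided by transcript length and by the mapped total of the library. The number of fragments is unknown, and no counting interval is given. The knockout table has no value under 1, so 1 is a floor there, and levels of the 2 tables are not on a shared scale.

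Cells take up amino acids through carriers with different substrates and driving forces. When amino acids run short or the endoplasmic reticulum is stressed, the kinases GCN2 or PERK phosphorylate eIF2alpha, most translation slows, and the transcription factor ATF4 is made from an mRNA with upstream open reading frames. ATF4, often with a C/EBP partner, binds response elements in genes of amino acid synthesis and uptake, so that carriers of this group are known targets of the response. Cystine uptake by SLC7A11 also feeds glutathione synthesis and is under the antioxidant factor NRF2.

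ATF4 with a C/EBP partner binds elements with the core TGATGNAA, and NRF2 binds elements with the core TGACNNNGC. Promoter windows of RefSeq (build GRCh38.p14, 250 bases before to 50 bases after an annotated start) matched 9 of the 10 members by symbol, all but SLC7A11, with 16 windows. Each window was searched on both strands for these cores and for TGATGCAA, the form of TGATGNAA with C at the open base. The first core was found in 3.62% of 35116 human windows and in 5 of the 16 member windows, 1 each of SLC1A4, SLC1A5, SLC38A1, SLC3A2 and SLC7A1. TGATGCAA was found in 0.866% of windows and in 2 of the 16, of SLC1A4 and SLC1A5. TGACNNNGC was found in 13.3% of windows and in 4 of the 16, of SLC1A5, SLC3A2, SLC7A1 and SLC7A5. A match describes these letters only. Windows of 3 members are printed 5′ to 3′ on the gene's strand, with matches in capitals. SLC3A2 and SLC38A2 are shown because they are the members that passed the test in the first experiment, and SLC1A4 because it holds TGATGCAA next to its start. The SLC3A2 window is chr11:62881449-62881748 on the plus strand, with TGACNNNGC starting at position -37 and TGATGNAA, read on the opposite strand, at position 38. The SLC1A4 window is chr2:64989149-64989448 on the plus strand, with TGATGCAA on the opposite strand at position -7. The SLC38A2 window, chr12:46372724-46373023 on the minus strand, holds none of the 3 cores. Positions count from 1 at the annotated start, with the base before it as -1.
SLC3A2: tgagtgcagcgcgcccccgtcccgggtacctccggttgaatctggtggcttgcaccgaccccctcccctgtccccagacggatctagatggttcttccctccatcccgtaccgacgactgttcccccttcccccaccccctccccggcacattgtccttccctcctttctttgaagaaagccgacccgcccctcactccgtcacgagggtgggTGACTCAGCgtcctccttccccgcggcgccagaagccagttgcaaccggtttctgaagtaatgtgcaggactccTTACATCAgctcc
SLC1A4: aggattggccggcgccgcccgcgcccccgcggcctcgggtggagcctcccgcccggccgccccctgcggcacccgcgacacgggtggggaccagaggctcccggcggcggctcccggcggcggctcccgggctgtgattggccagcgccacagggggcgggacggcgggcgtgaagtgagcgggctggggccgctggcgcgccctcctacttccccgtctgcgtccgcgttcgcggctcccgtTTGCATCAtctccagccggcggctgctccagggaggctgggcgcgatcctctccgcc
SLC38A2: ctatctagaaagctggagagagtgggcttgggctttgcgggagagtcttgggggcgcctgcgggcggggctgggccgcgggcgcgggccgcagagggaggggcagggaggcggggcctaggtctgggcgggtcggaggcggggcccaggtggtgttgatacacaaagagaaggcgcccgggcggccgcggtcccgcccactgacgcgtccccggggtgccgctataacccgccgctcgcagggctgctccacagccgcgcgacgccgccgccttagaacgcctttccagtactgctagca

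The transfected gene stood apart in both experiments. TMEM173, the symbol used for STING, had 67205 ± 2896 FPKM with STING against 14.4 ± 0.836 FPKM with vector in the first experiment (SD, n = 2 each). After STING transfection it had 8925 ± 2244 FPKM in PERK knockout cells and 41236 ± 815 FPKM in wild-type cells (SD, n = 2 each). EIF2AK3, the gene of PERK, was between 1 and 1.15 FPKM in the knockout table and cannot check the genotype label. VIM and KRT18, genes that HEK293 cells make, led the marker genes of the first experiment, and no fibroblast marker exceeded 1 FPKM there. Replicates of a group correlated with r between 0.972 and 0.991 across genes on the log2 scale.

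Levels of the members spanned a wide range that was similar in the 6 groups. FPKM values are per transcript length, so they can be set side by side between genes. SLC1A5, also called ASCT2, which exchanges glutamine and other neutral amino acids with sodium, and SLC3A2, the heavy chain CD98 that carries light chains such as SLC7A5 and SLC7A11 to the membrane, held the first 2 places in each group. SLC3A2 averaged 200 FPKM with STING and 118 FPKM with vector, and SLC1A5 averaged 167 FPKM with STING and 133 FPKM with vector in the first experiment. Their mean levels stood between the percentiles 92.5 and 97.5 of all symbols of a table over the 6 groups. Their order differed between groups. The libraries of the pair overlapped in each vector group and in the STING group of PERK knockout cells.

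SLC38A2 or SLC7A5 came next in each group, a step down of 3.11-fold to 9.70-fold from the second place. SLC38A2, or SNAT2, is a sodium-coupled carrier of small neutral amino acids, and SLC7A5, or LAT1, exchanges large neutral ones such as leucine. The libraries of this pair were separate, SLC38A2 lying higher, in the STING groups of wild-type cells and of the first experiment, and overlapped or were not neighbours in the order elsewhere. SLC7A1, SLC38A1, SLC43A1 and SLC6A9 lay below them, except that SLC43A1 overlapped SLC38A2 in both groups of PERK knockout cells and SLC7A5 in the STING group of those cells. Among neighbours of these 4, libraries were separate for SLC6A9 over SLC43A1 in both wild-type groups, for SLC43A1 over SLC7A1 in wild-type STING, for SLC43A1 over SLC6A9 in knockout vector and for SLC38A1 over SLC43A1 in first-experiment vector. At the low end, SLC1A4, or ASCT1, an exchanger of alanine, serine and cysteine, was ninth in each group with means of 0.951 to 2.07 FPKM. SLC7A11, the cystine and glutamate exchanger xCT, was last in each group. It stood at 0.303 to 0.992 FPKM in the 4 libraries of the first experiment and at exactly 1 in 5 of 8 libraries of the knockout experiment, with a highest value of 1.31 FPKM. A response of SLC7A11 below 1 FPKM is therefore not detectable in the knockout table.

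**Figure D1:**
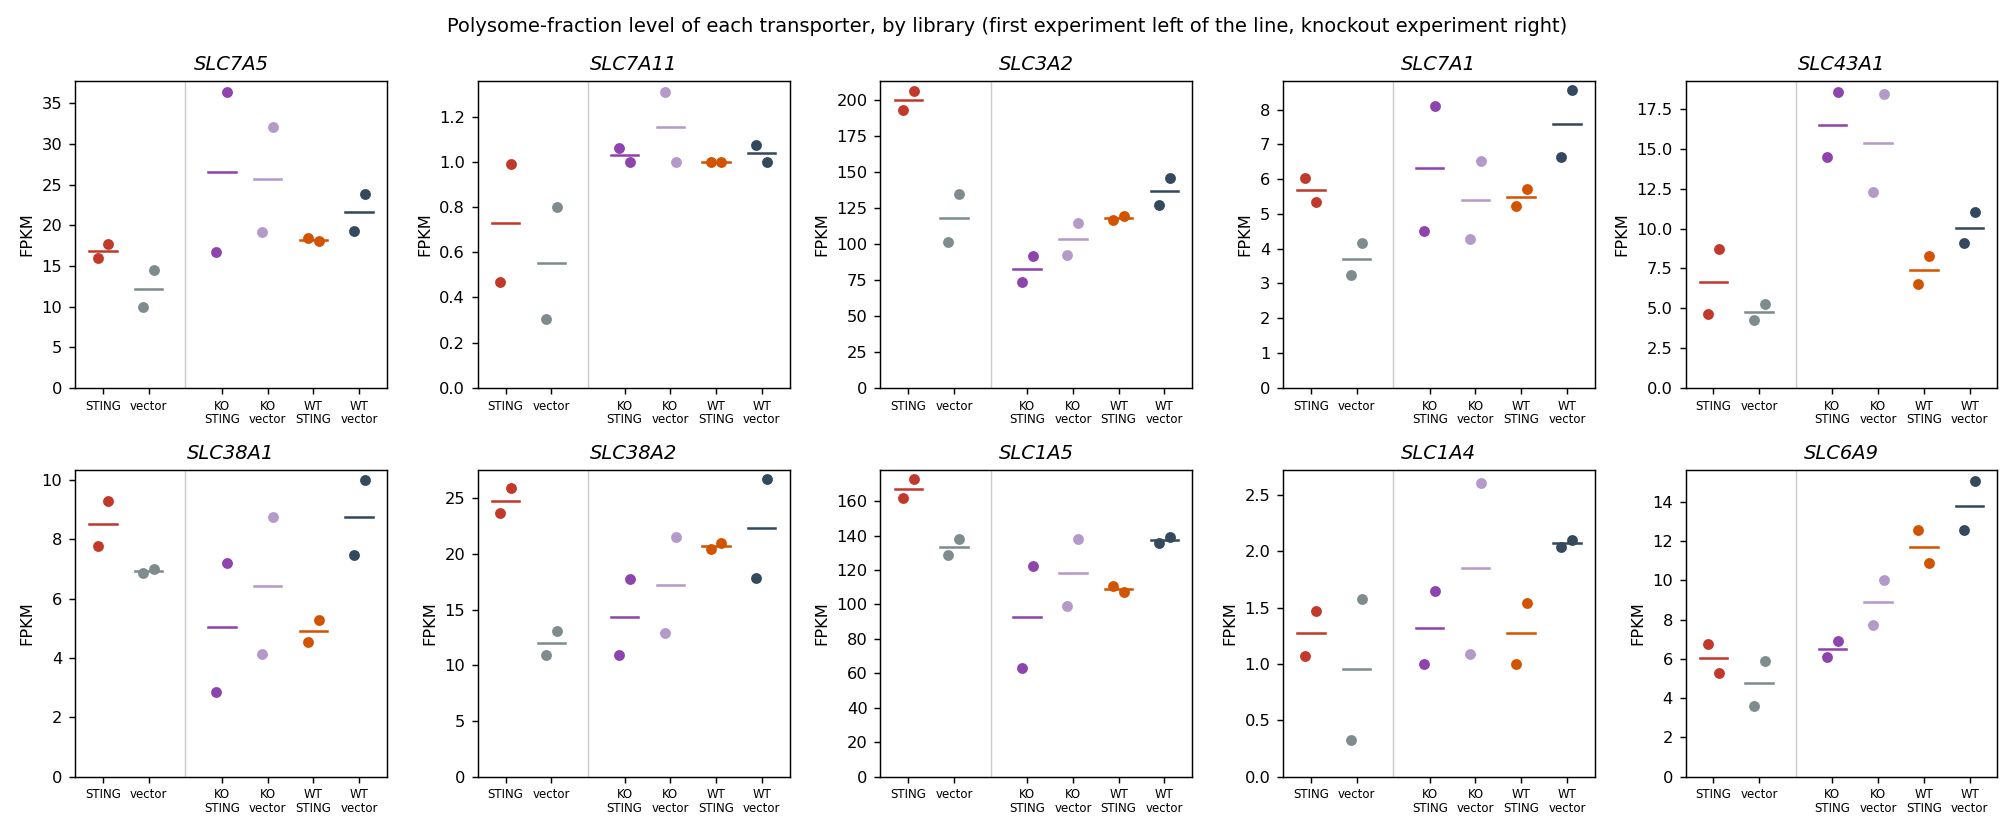
FPKM of each member in each library (points) with the group mean (line), one panel per gene with its own linear axis from 0; the first 2 groups in a panel are the first experiment and the other 4 the knockout experiment, which are not on a shared scale. SLC3A2 and SLC38A2 are higher in both STING libraries than in both vector libraries of the first experiment, and SLC43A1 is higher in the 4 PERK knockout libraries than in the 4 wild-type libraries.

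In the first experiment, SLC38A2 and SLC3A2 rose with STING, by 0.99 and 0.77 on the log2 scale, and no member fell. These are 2 of 9 members tested; among all genes tested, 2.51% passed in the higher direction and 9.29% in the lower direction. All 9 members had a positive log2 change, with a median of 0.36, while the median of all 9464 genes tested was -0.05. In 6 of the 9 members both STING libraries lay above both vector libraries, which held for 24.2% of all genes, and in none of the 9 did both lie below, which held for 32.8%. A log2 change here is the difference of log2(FPKM + 1), which makes changes of weakly measured genes look smaller, and the test is limma with Benjamini-Hochberg adjustment over all genes. In these bulk libraries a higher value may reflect more of the RNA per cell, more cells that hold it or a larger share of it on ribosomes, and these cannot be told apart, since total RNA was not analysed here.

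Among the members that work in heteromeric exchangers, SLC3A2 had 194 and 207 FPKM in the STING libraries, against 102 and 135 FPKM in the vector libraries. Both STING libraries lay above both vector libraries, and the change of 0.77 (SE 0.15, 95% confidence interval 0.42 to 1.12) passed (limma adjusted p = 0.0173). Its light chain SLC7A5 had 15.9 and 17.6 FPKM with STING, against 9.95 and 14.5 FPKM with vector. The groups again did not overlap, but the change of 0.45 (SE 0.22, interval -0.06 to 0.96) did not pass (limma adjusted p = 0.233). SLC7A11 had 0.469 and 0.992 FPKM with STING, against 0.303 and 0.801 FPKM with vector. Its groups overlapped, and it was not tested.

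SLC7A1, or CAT1, which brings in arginine and lysine, had 6.04 and 5.34 FPKM with STING, against 3.24 and 4.15 FPKM with vector. STING libraries were the higher ones throughout, and the change of 0.51 (SE 0.23, interval -0.02 to 1.05) missed the threshold (limma adjusted p = 0.196). SLC43A1, or LAT3, a facilitative carrier of branched-chain amino acids and phenylalanine, had 4.65 and 8.71 FPKM with STING, against 4.30 and 5.26 FPKM with vector. The second STING library alone stood apart, and the groups overlapped (log2 change 0.36, limma adjusted p = 0.481).

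Of the pair of sodium-coupled neutral carriers, SLC38A2 had 23.7 and 25.9 FPKM with STING, against 10.9 and 13.1 FPKM with vector. Its change of 0.99 (SE 0.18, interval 0.57 to 1.42) was the highest of the 9 members and passed (limma adjusted p = 0.0138). SLC38A2 is a well-known target of the amino acid response, through an element in its first intron. Its relative SLC38A1, or SNAT1, had 7.77 and 9.29 FPKM with STING, against 6.88 and 6.99 FPKM with vector. The groups did not overlap, at a change of 0.26 (interval -0.22 to 0.74, limma adjusted p = 0.473).

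SLC1A5 had 162 and 173 FPKM with STING, against 129 and 138 FPKM with vector. The libraries separated with small spread, and the change of 0.32 (SE 0.11, interval 0.06 to 0.59) did not pass (limma adjusted p = 0.111); it passed after quantile normalization, at a change of 0.63 (limma adjusted p = 0.0156; 0.0156 to 0.412 over all alternatives). SLC1A4 had 1.07 and 1.47 FPKM with STING, against 0.324 and 1.58 FPKM with vector, with overlapping groups. SLC6A9, the glycine transporter GlyT1, had 6.78 and 5.27 FPKM with STING, against 3.62 and 5.88 FPKM with vector, and its groups overlapped too. Neither change passed (0.29 and 0.31, limma adjusted p = 0.654 and 0.511).

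Both calls rest on 2 libraries a group. SLC38A2 and SLC3A2 missed the threshold without STING replicate 1 (limma adjusted p = 0.178 and 0.219) and without STING replicate 2 (0.182 and 0.223), where the lone STING library is assumed to vary like the vector group. They passed when either vector library was left out, and missed it without the intensity trend and robust estimation (limma adjusted p = 0.0948 and 0.125). SLC3A2 also missed it with no filter on low values (limma adjusted p = 0.0612). Over all alternatives the adjusted p ran from 0.0042 to 0.182 for SLC38A2 and from 0.0015 to 0.223 for SLC3A2, with log2 changes of 0.81 to 1.11 and 0.56 to 1.10.

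**Figure D2:**
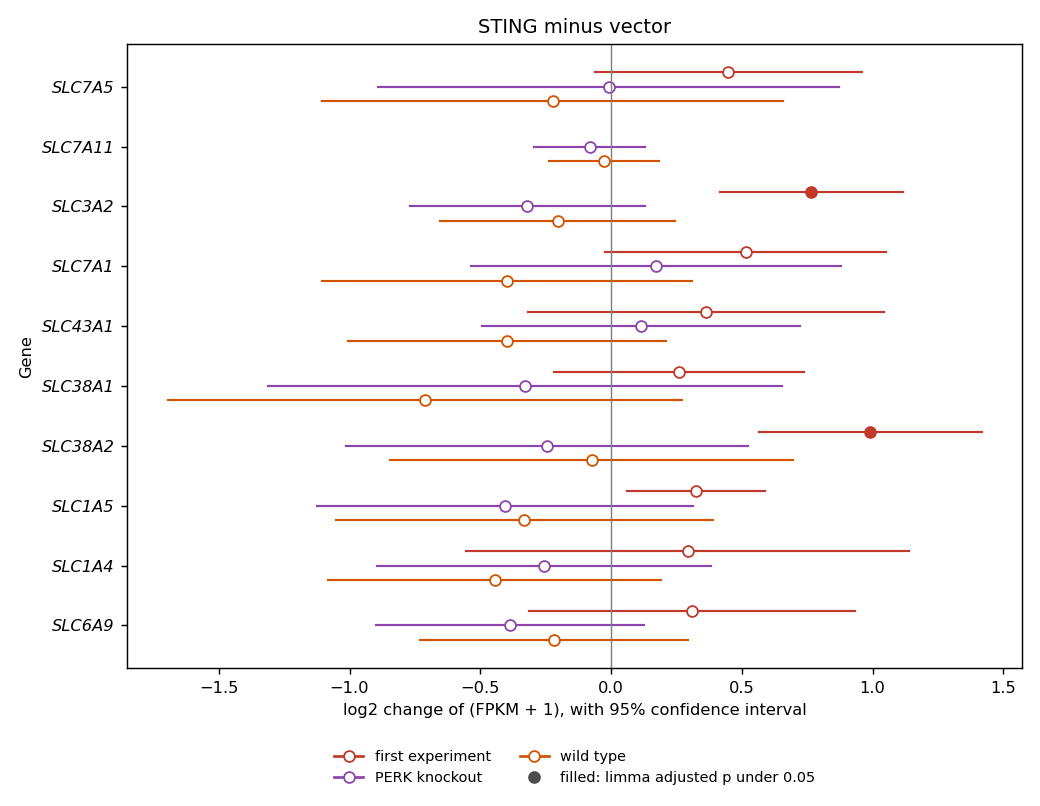
log2 change of FPKM + 1, STING minus vector, for each member in the first experiment, in PERK knockout cells and in wild-type cells, with 95% confidence intervals from limma; filled points have an adjusted p under 0.05. SLC38A2 (0.99) and SLC3A2 (0.77) of the first experiment are the filled points, and the 10 intervals of each genotype in the knockout experiment include 0.

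Calls in 5 other gene lists of the first experiment stand beside the 2.51% of all genes that passed as higher and the 9.29% that passed as lower, and no list was tested against another. Of 32 tested targets of ATF4 other than transporters, 15 rose and 0 fell, with a median log2 change of 0.79 beside -0.05 over all genes. ATF3, a stress-induced transcription factor, had 55.0 and 51.3 FPKM with STING, against 13.1 and 8.34 FPKM with vector (2.24, limma adjusted p = 0.0018). ASNS, asparagine synthetase, had 39.9 and 39.8 FPKM with STING, against 10.9 and 16.6 FPKM with vector (1.50, limma adjusted p = 0.0055). PSAT1, an enzyme of serine synthesis, had 22.5 and 21.2 FPKM with STING, against 8.52 and 7.69 FPKM with vector (1.33, limma adjusted p = 0.0051). The count was 0 without STING replicate 1, without STING replicate 2 and without the intensity trend, and was 9 without vector replicate 2, 10 without vector replicate 1 and 8 with no filter.

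Of 16 tested transporters outside the 10, 0 rose and 1 fell, with a median of -0.20. The one that fell was SLC43A2, or LAT4, a relative of SLC43A1, with 0.739 and 0.462 FPKM with STING, against 3.27 and 2.37 FPKM with vector (-1.25, limma adjusted p = 0.0244; it passed in 0 of 4 fits that left out a library, with 0.0631 to 0.205). Of 17 genes of glutathione synthesis and NRF2, 0 rose and 3 fell, with a median of -0.17. FTH1 and FTL, the ferritin chains, fell by 0.60 each, with limma adjusted p = 0.0090 and 0.0095. GPX4, which reduces lipid peroxides, fell by 0.47 with limma adjusted p = 0.0179, and did not pass after median-of-ratios scaling. None of the 3 passed without either single STING library, without the intensity trend or after quantile normalization.

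Of 23 genes that sense amino acids for mTORC1 or GCN2, 1 rose and 2 fell. FLCN, folliculin, a partner of the Rag GTPases, had 10.6 and 14.7 FPKM with STING, against 2.88 and 4.92 FPKM with vector (1.50, limma adjusted p = 0.0134). MLST8, a subunit of mTORC1, and LAMTOR1, the lysosomal anchor of the Ragulator complex, fell by 0.74 and 0.65 (limma adjusted p = 0.0184 and 0.00999). These 3 calls were lost without STING replicate 1, without STING replicate 2 and without the intensity trend and robust estimation. Those of MLST8 and LAMTOR1 were also lost with quantile normalization, and that of MLST8 with no filter on low values and without vector replicate 2. Of 7 subunits of the sodium pump and membrane partners of CD98 or CD147, 0 passed in either direction. After median-of-ratios scaling 2 passed as higher, and with a mean of at least 5 FPKM 1 of 5 tested did. With the replicate number as a block, 1 passed as higher and 1 as lower. ITGB1, an integrin chain that binds CD98, had 8.19 and 8.26 FPKM with STING, against 3.57 and 5.25 FPKM with vector (0.79, limma adjusted p = 0.0718).

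In the knockout experiment no member passed in the response to STING, in either genotype. In PERK knockout cells 0 of 10 members passed in either direction, where 0.00816% of all 12254 genes tested passed as higher and 0.0% as lower; the lowest limma adjusted p of a member was 0.744, and 944 genes had an unadjusted p under 0.05. In wild-type cells 0 of 10 passed, with the same shares of all genes; the lowest limma adjusted p of a member was 0.442, and 1570 genes had an unadjusted p under 0.05. The 1 gene called in each genotype was TMEM173 itself.

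In PERK knockout cells, 2 members had both STING libraries below both vector libraries, while 21.9% of all genes did, and 0 had both above, while 5.66% did. SLC3A2 had 73.5 and 91.7 FPKM with STING, against 92.2 and 114 FPKM with vector (log2 change -0.32, interval -0.77 to 0.13, limma adjusted p = 0.750). SLC6A9 had 6.09 and 6.93 FPKM with STING, against 7.71 and 10.0 FPKM with vector (-0.39, interval -0.90 to 0.12, limma adjusted p = 0.744). In both, the libraries of the groups sat close together. The 10 changes ran from -0.41 for SLC1A5 to 0.17 for SLC7A1, 8 of them negative, with a median of -0.25 beside -0.11 over all genes.

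The other 8 members overlapped between STING and vector in PERK knockout cells. SLC38A2 had 10.9 and 17.8 FPKM with STING, against 12.9 and 21.5 FPKM with vector. SLC7A5 had 16.6 and 36.4 FPKM with STING, against 19.2 and 32.1 FPKM with vector. In each of these groups replicate 2 was the high library, and the gap between replicates exceeded that between treatments. SLC1A5 had 63.0 and 123 FPKM with STING, against 98.9 and 138 FPKM with vector. SLC38A1 had 2.85 and 7.21 FPKM with STING, against 4.13 and 8.74 FPKM with vector. The same order of replicates held for both genes.

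In wild-type cells all 10 changes were negative, with a median of -0.28 beside -0.27 over all genes. Among the members 7 had both STING libraries below both vector libraries, which held for 52.3% of all genes, and 0 had both above, which held for 3.31%. Median-of-ratios scaling divides each library by the median ratio of its genes to their geometric mean over libraries, from genes above the floor throughout. After this scaling the median of all genes was 0.05 and the changes of SLC7A5, SLC7A11, SLC3A2, SLC38A2, SLC1A5 and SLC6A9 turned positive. SLC38A2 had 20.5 and 21.0 FPKM with STING, against 17.9 and 26.8 FPKM with vector. Its STING libraries lay between the vector libraries (log2 change -0.07, interval -0.84 to 0.70, limma adjusted p = 0.969). SLC3A2 had 117 and 120 FPKM with STING, against 127 and 146 FPKM with vector (-0.20, interval -0.65 to 0.24, limma adjusted p = 0.592), which is 0.06 above the median change of all genes.

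SLC38A1 had 4.54 and 5.27 FPKM with STING, against 7.48 and 9.99 FPKM with vector in wild-type cells. Its STING libraries were both lower, and its change of -0.71 (interval -1.69 to 0.27, limma adjusted p = 0.442) was the most negative of the members and 0.44 below the median of all genes. SLC1A5 had 111 and 107 FPKM with STING, against 136 and 139 FPKM with vector, a change of -0.33. SLC7A5 had 18.4 and 18.1 FPKM with STING, against 19.3 and 23.8 FPKM with vector, a change of -0.22. Neither passed (limma adjusted p = 0.588 and 0.788). SLC7A1 had 5.24 and 5.72 FPKM with STING, against 6.63 and 8.55 FPKM with vector, and SLC43A1 had 6.55 and 8.25 FPKM with STING, against 9.07 and 11.0 FPKM with vector. Both changes were -0.40 and neither passed.

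The test of the difference between genotypes in the response to STING called 0 of 10 members and 0.0% of all genes (limma), while 474 genes had an unadjusted p under 0.05. The differences ran from -0.17 for SLC38A2 and SLC6A9 to 0.57 for SLC7A1 (interval -0.43 to 1.57), and the lowest adjusted p of a member was 0.966. The 95% intervals of all 10 members included 0. The STING transcript was lower in knockout cells, so genotype and amount of STING cannot be told apart in this test either. For SLC3A2 the interval ran from -0.75 to 0.52, for SLC38A2 from -1.26 to 0.92, and for SLC38A1, the widest, from -1.01 to 1.77. None of the 5 other gene lists held a gene called in the STING response of either genotype or in the difference. The 32 ATF4 targets had median changes of -0.25 in PERK knockout cells and -0.18 in wild-type cells, beside -0.11 and -0.27 over all genes.

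PERK knockout cells were also compared with wild-type cells under each plasmid. With STING, 0 of 10 members passed, where 1.21% of genes passed as higher and 0.547% as lower. SLC43A1 stood highest, with 14.5 and 18.6 FPKM in PERK knockout cells, against 6.55 and 8.25 FPKM in wild-type cells. The groups were well apart, and the change of 1.06 (SE 0.26, interval 0.45 to 1.67) missed the threshold with the deposited scale (limma adjusted p = 0.0982). It passed when genes with a mean under 5 FPKM were left out (0.0497), after median-of-ratios scaling (0.0351) and after quantile normalization (0.0367). Over the alternatives its adjusted p ran from 0.0183 to 0.498, with the highest value without wild-type STING replicate 1.

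SLC43A1 was the 1 member whose PERK knockout libraries with STING all lay above the wild-type ones, which held for 24.8% of genes. For 3 members they all lay below, which held for 20.6%. SLC6A9 had 6.09 and 6.93 FPKM in PERK knockout cells with STING, against 12.6 and 10.9 FPKM in wild-type cells with STING (-0.76, SE 0.22, limma adjusted p = 0.135; 0.0471 after quantile normalization, and 0.0471 to 0.577 over the alternatives). SLC3A2 had 73.5 and 91.7 FPKM in PERK knockout cells, against 117 and 120 FPKM in wild-type cells (-0.52, SE 0.19, limma adjusted p = 0.222). SLC38A2 had 10.9 and 17.8 FPKM in PERK knockout cells, against 20.5 and 21.0 FPKM in wild-type cells (-0.54, SE 0.33, limma adjusted p = 0.466). The STING transcript itself was lower in these knockout libraries, as given above, so the genotype and the amount of STING cannot be told apart in this comparison.

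With vector, 0 of 10 members passed, where 0.0326% of genes passed as higher and 0.0163% as lower. SLC43A1 had 12.3 and 18.4 FPKM in PERK knockout cells, against 9.07 and 11.0 FPKM in wild-type cells (0.55, SE 0.26, limma adjusted p = 0.449). It was the 1 member with separate and higher knockout libraries, as were 12.5% of genes. Those of 3 members were separate and lower, as were 25.8% of genes. SLC6A9 had 7.71 and 10.0 FPKM in PERK knockout cells, against 12.6 and 15.1 FPKM in wild-type cells (-0.59, limma adjusted p = 0.347). SLC3A2 had 92.2 and 114 FPKM in PERK knockout cells, against 127 and 146 FPKM in wild-type cells (-0.41, limma adjusted p = 0.445). SLC7A1 had 4.27 and 6.52 FPKM in PERK knockout cells, against 6.63 and 8.55 FPKM in wild-type cells (-0.44, limma adjusted p = 0.583).

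Averaged over both plasmids, a comparison added after the values were seen, 0 of 10 members passed, where 2.98% of genes passed as higher and 2.42% as lower. Over the 4 libraries of a genotype, SLC43A1 averaged 16.0 FPKM in PERK knockout cells and 8.73 FPKM in wild-type cells, a change of 0.80 (SE 0.19, limma adjusted p = 0.0505). SLC6A9 averaged 7.69 FPKM in PERK knockout cells and 12.8 FPKM in wild-type cells, a change of -0.67 (SE 0.16, limma adjusted p = 0.0504). SLC3A2 averaged 92.9 FPKM in PERK knockout cells and 128 FPKM in wild-type cells, a change of -0.46 (SE 0.14, limma adjusted p = 0.0967). In these 3 members the 4 knockout libraries did not overlap the 4 wild-type ones, SLC43A1 lying higher as did 5.79% of genes, and SLC6A9 and SLC3A2 lower as did 5.61%. SLC43A1 and SLC6A9 sat just outside the threshold. Among the 8 alternatives that kept every library, 5 moved SLC43A1 inside (limma adjusted p = 0.0082 to 0.0561). For SLC6A9, 6 of the 8 did (limma adjusted p = 0.0213 to 0.0532). Leaving out 1 library gave changes of 0.67 to 0.94 for SLC43A1 and -0.76 to -0.59 for SLC6A9. The average includes the STING libraries, where genotype and amount of STING cannot be told apart.

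**Figure D3:**
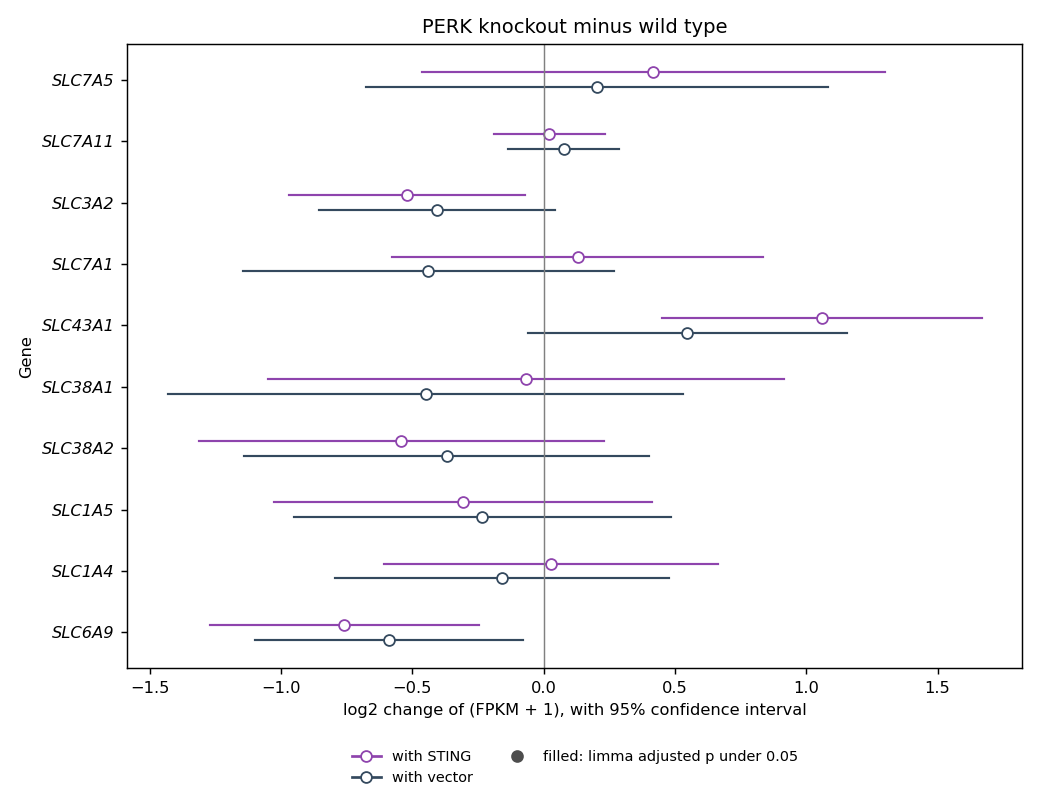
log2 change of FPKM + 1, PERK knockout minus wild type, for each member, with STING (upper point of a pair) and with vector (lower point), with 95% confidence intervals from limma; no adjusted p is under 0.05, so all points are open. SLC43A1 lies to the right (1.06 with STING and 0.55 with vector), and SLC6A9 and SLC3A2 lie to the left under both plasmids.

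The summed level of the markers of the line was higher in PERK knockout libraries, with no test run. The 7 listed markers of HEK293 cells summed to 239 to 427 FPKM in PERK knockout libraries and to 152 to 214 FPKM in wild-type libraries, most of it VIM, and PAX2 and LHX1 were at or near the floor in all groups. Not every marker followed the sum: with vector, KRT18 had 50.4 and 81.9 FPKM in PERK knockout cells, against 53.9 and 63.1 FPKM in wild-type cells, and LIN28B averaged 3.12 FPKM in PERK knockout cells and 4.18 FPKM in wild-type cells. The 3 listed haematopoietic genes summed to 5.50 to 16.7 FPKM in PERK knockout libraries and to 8.04 to 11.5 FPKM in wild-type libraries. APOA1, the 1 listed hepatocyte marker, had 3.48 to 8.79 FPKM in PERK knockout libraries and at most 2.50 FPKM in wild-type libraries. COL1A1, the 1 listed fibroblast marker, had 1 to 1.75 FPKM in PERK knockout libraries and was at 1 in wild-type libraries. The part of these shifts in the differences of SLC43A1, SLC6A9 and SLC3A2 was not tested.

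With STING, 1 of 22 tested transporters outside the 10 passed as higher in PERK knockout cells and 0 as lower, where 1.21% of all genes passed as higher and 0.547% as lower. It was SLC7A3, a carrier of cationic amino acids related to SLC7A1, with 3.84 and 5.55 FPKM in PERK knockout cells, against the floor of 1 in both wild-type libraries (limma adjusted p = 0.0293). Of the 32 ATF4 targets, 1 passed as higher and 2 as lower with STING. DDIT4, an inhibitor of mTORC1, was higher in knockout cells by 1.90, and CHAC1, which degrades glutathione, and DDIT3, the factor CHOP, fell by 1.54 and 0.97 (limma adjusted p = 0.0439, 0.0477 and 0.0439). Among 8 fits that each left out 1 library, SLC7A3 and DDIT4 passed in 1 each, and CHAC1 and DDIT3 in 0. None of the lists of glutathione and sensing genes held a call under STING, and none of the 5 lists held one under vector.

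Ratios between members within a library do not change when a library is multiplied by a factor. The pairs were chosen after the values were seen and are given without a test. The SLC38A2 to SLC38A1 ratio was 3.05 and 2.79 with STING and 1.59 and 1.87 with vector in the first experiment. Among wild-type libraries it was 4.52 and 3.99 with STING and 2.39 and 2.68 with vector. In PERK knockout cells it was 3.82 and 2.47 with STING and 3.13 and 2.46 with vector. STING libraries were higher without overlap in wild-type cells and in the first experiment, and overlapped vector libraries in PERK knockout cells. The parts of the ratio moved differently. In the first experiment SLC38A2 averaged 24.8 FPKM with STING and 12.0 FPKM with vector, and SLC38A1 8.53 and 6.93 FPKM. In wild-type cells SLC38A2 averaged 20.7 and 22.3 FPKM, and SLC38A1 4.90 and 8.73 FPKM. The difference between genotypes was not tested. The STING transcript was also lower in knockout cells, so genotype and amount of STING cannot be told apart.

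The SLC7A5 to SLC3A2 ratio sets the light chain LAT1 beside its heavy chain. It was 0.227 and 0.397 with STING and 0.208 and 0.280 with vector in PERK knockout cells. In wild-type cells it was 0.157 and 0.151 with STING and 0.152 and 0.163 with vector. The 4 knockout libraries were all above the 4 wild-type ones, and replicate 2 was the higher in both knockout groups. The first experiment gave 0.0822 and 0.0853 with STING and 0.0979 and 0.107 with vector, so that the heavy chain stood further above the light chain with STING. The SLC43A1 to SLC7A5 ratio was 0.872 and 0.510 with STING and 0.642 and 0.575 with vector in PERK knockout cells. In wild-type cells it was 0.356 and 0.456 with STING and 0.470 and 0.464 with vector, below each knockout library.

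**Figure D4:**
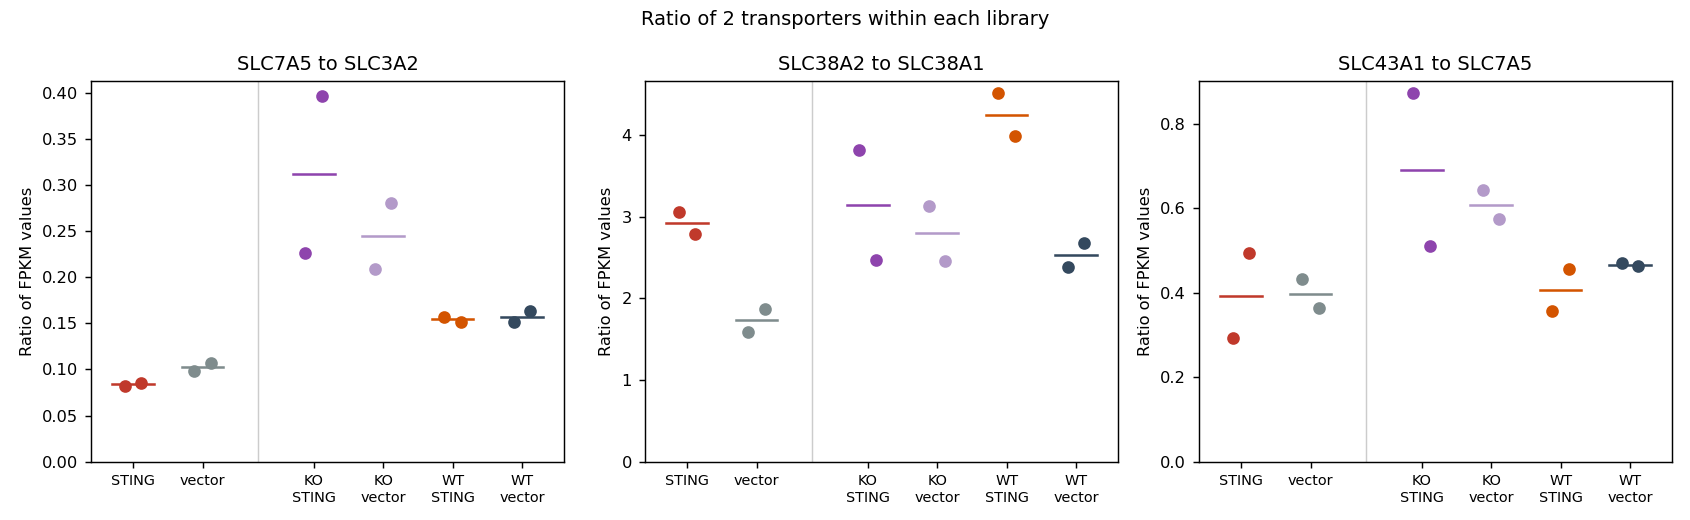
Ratio of the FPKM of 2 members within each library (points) with the group mean (line), on linear axes from 0; the first 2 groups of a panel are the first experiment and the other 4 the knockout experiment. SLC38A2 to SLC38A1 is 3.99 and 4.52 in wild-type STING libraries and 2.39 and 2.68 in wild-type vector libraries, and SLC7A5 to SLC3A2 is higher in the 4 PERK knockout libraries than in the 4 wild-type libraries.

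Members also shifted together between replicates. The median of the members was higher in replicate 2 than in replicate 1 by 0.53 on the log2 scale in both PERK knockout groups, while the median of all genes differed by 0.11 in each. In wild-type cells the gap was 0.03 with STING and 0.25 with vector, with 0.0 and 0.08 over all genes. In the first experiment it was 0.13 with STING and 0.34 with vector, with 0.01 and 0.12 over all genes. SLC38A1 had the widest gap in the knockout groups, 1.09 with STING and 0.93 with vector. The values that the treatment comparisons rest on thus varied most in PERK knockout cells.

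As a description, log2 values were centred on the mean of their own table and correlated over the 12 libraries, which share a line, protocol and group structure. Of 45 pairs of members, 42 had a positive Pearson r, and r ran from -0.47 for SLC43A1 with SLC6A9 to 0.94 for SLC3A2 with SLC38A2. The values were not scaled between libraries, whose median-of-ratios factors ran from 0.849 to 1.25 in the knockout experiment. No share of positive pairs among all genes was computed, so the count cannot be read as particular to the members. SLC38A1 with SLC1A5 had 0.92 and SLC3A2 with SLC6A9 had 0.85. Against 4838 genes that averaged 5 FPKM or more in each table, SLC3A2 was most like DUSP1 (0.958), EIF2B5 (0.958) and ELF2 (0.953). SLC7A5 was most like HEBP1 (0.944), ST13 (0.939) and SYPL1 (0.935). SLC7A11 was most like DVL1 (0.890), KLHL36 (0.849) and ATXN2L (0.839), with a pattern set by values near 1 FPKM.

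Upstream start codons in the leader of an mRNA can let it escape the block on translation when eIF2alpha is phosphorylated. In the GENCODE 29 annotation, the leader of the principal transcript held at least 1 upstream AUG in 6 of the 10 members, as in 54.0% of 18675 genes. SLC38A1 had 7 in a leader of 695 bases. SLC7A11 and SLC6A9 had 2 each, and SLC3A2, SLC7A1 and SLC38A2 had 1 each. SLC7A5, SLC43A1, SLC1A5 and SLC1A4 had 0. The 2 members that passed in the first experiment had 1 each. Whether upstream AUGs bear on the response to STING was not tested.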

How the data were processed

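RNA of polysome fractions was measured in 12 HEK293 libraries, with groups and replicate numbers from the sample titles. The authors made the FPKM values of the first experiment from hg19 alignments, and the submitters' processing notes name TopHat2 2.1.1 and Cufflinks 2.2.1. No unit is named in the deposited knockout table, which was taken to hold FPKM values raised to 1 where lower, since 1 is its lowest value. The gene annotation and any filter of the authors are not given in these sources, and the spike-in RNAs that the labels name for the knockout experiment were not analysed here. Between 38.7% and 40.2% of symbols stood at 0 in a library of the first experiment, and between 13.1% and 18.1% at 1 in the knockout experiment. Neither table gives counts, so depth is unknown.

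From the deposited values, log2(FPKM + 1) was tested with limma 3.58.1 in R 4.3.3, on each table alone, with an intensity trend and robust estimation, two-sided, with Benjamini-Hochberg adjustment at 0.05 over all genes. Genes were left out if their mean was under 1 or no library differed from another, which left 9464 and 12254 genes. For the knockout experiment 1 spread per gene was estimated from its 8 libraries. The fit was tested on data simulated with the spread of each table. Changes were given only to genes of higher mean level, not to weakly measured ones. Of 100 genes given a log2 change of 1, 27% were recovered in the first experiment and 15% in the wild-type comparison. For a change of 2 it was 72% and 73%, and 4 and 2 unchanged genes were called. Most changes of 1 were thus missed, so a count of 0 does not show that there was no response. The shares recovered do not cover weakly measured members such as SLC7A11, SLC1A4 and SLC7A1. Errors are SE for changes and SD for levels.

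The members and gene lists were chosen with earlier results of these data known. All members are named, with the 3 genes most like each of SLC7A11, SLC7A5 and SLC3A2. By rule, up to 3 genes with the largest change among those that passed are named from each list and comparison, or 2 as values where none passed. Such values are given for the first experiment and counts alone elsewhere, and some results of 1 list are not reported here. Alternatives were a pseudocount of 0.1 or 5, no filter or a mean of at least 5, median-of-ratios scaling, quantile normalization, no trend, a replicate block, the libraries of 1 genotype alone, and leaving out each library.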

Additional observations from a re-analysis of the deposited data

Results flagged for a closer look

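In 5 members both STING libraries lay above both vector libraries in the first experiment and below both in wild-type cells of the knockout experiment. Over all genes tested, 24.2% lay above in the first experiment and 52.3% lay below in wild-type cells, and 13.5% of the 8808 genes tested in both tables did both. SLC3A2 changed by 0.77 on the log2 scale in the first experiment, while its value was -0.20 in wild-type cells. It also had separate libraries in the opposite direction in PERK knockout cells, with a value of -0.32, as did 5.39% of those 8808 genes. SLC7A5 had 0.45 in the first experiment and -0.22 in wild-type cells, and SLC7A1 had 0.51 and -0.40. SLC38A1 had 0.26 in the first experiment and -0.71 in wild-type cells, and SLC1A5 had 0.32 and -0.33. These differences between experiments were not tested, because the tables were processed separately and are not on a shared scale. Beside them, the median of all genes was -0.05 in the first experiment, and -0.11 in PERK knockout and -0.27 in wild-type cells of the other. Relative to that median, the wild-type values of SLC3A2 and SLC7A5 were 0.06 and 0.04, those of SLC1A5, SLC7A1 and SLC38A1 were -0.06, -0.13 and -0.44, and the knockout value of SLC3A2 was -0.21. No member passed in wild-type or PERK knockout cells (limma).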

How the results depend on the processing

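The 69 values of members and comparisons were recomputed 1072 times. Direction and side of the threshold were the same in 983, 7 lost the call, 18 gained one and 64 turned sign; the causes were not tested. In the first experiment the count of members that passed, 2, was 1 with no filter, where more genes are tested (SLC38A2), 3 with quantile normalization, where SLC1A5 also passed (limma adjusted p = 0.0156), 0 without the intensity trend and robust estimation, and 0 to 2 over the fits that left out a library. The 0 calls between genotypes with STING became 1 with a mean of at least 5, 1 with median-of-ratios scaling and 2 with quantile normalization. Averaged over both plasmids, the 0 calls became 2 with a pseudocount of 0.1, 2 with a mean of at least 5, 2 with either scaling and 1 without the trend.

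For STING minus vector in wild-type cells, median-of-ratios scaling and quantile normalization turned SLC7A5 (0.15, 0.14), SLC3A2 (0.18, 0.16), SLC38A2 (0.30, 0.29), SLC1A5 (0.055, 0.011) and SLC6A9 (0.14, 0.15) positive, and the first also SLC7A11 (0.17). In PERK knockout cells they turned SLC7A5 (0.17, 0.18) positive, and median-of-ratios scaling SLC7A11 (0.013). SLC1A4 between genotypes with STING became -0.045 with quantile normalization. Scaling of values at the floor of 1 moves SLC7A11 off that floor by construction.

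Of 49 changes of sign when 1 library was left out, 42 came from leaving out a PERK knockout library. For STING minus vector in the first experiment, the range was -0.027 to 0.75 for SLC43A1 and -0.19 to 0.42 for SLC1A4. For STING minus vector in wild-type cells, the range was -0.35 to 0.21 for SLC38A2. For STING minus vector in PERK knockout cells, the range was -0.55 to 0.53 for SLC7A5, -0.18 to 0.021 for SLC7A11, -0.19 to 0.53 for SLC7A1 and -0.16 to 0.39 for SLC43A1. It was -0.88 to 0.22 for SLC38A1, -0.59 to 0.099 for SLC38A2, -0.88 to 0.069 for SLC1A5 and -0.65 to 0.14 for SLC1A4. For the difference between the genotypes in that response, the range was -0.33 to 0.76 for SLC7A5, -0.16 to 0.048 for SLC7A11, -0.27 to 0.043 for SLC3A2 and -0.16 to 0.93 for SLC38A1. It was -0.52 to 0.17 for SLC38A2, -0.55 to 0.40 for SLC1A5, -0.21 to 0.58 for SLC1A4 and -0.34 to 0.0016 for SLC6A9. For PERK knockout minus wild type with vector, the range was -0.15 to 0.56 for SLC7A5, -0.027 to 0.18 for SLC7A11, -0.91 to 0.013 for SLC38A1 and -0.47 to 0.0054 for SLC1A5. It was -0.55 to 0.23 for SLC1A4. For PERK knockout minus wild type with STING, the range was -0.12 to 0.96 for SLC7A5, -0.23 to 0.49 for SLC7A1, -0.61 to 0.48 for SLC38A1 and -0.78 to 0.17 for SLC1A5. It was -0.17 to 0.23 for SLC1A4. For the same averaged over both plasmids, the range was -0.0029 to 0.10 for SLC7A11, -0.34 to 0.026 for SLC7A1, -0.53 to 0.015 for SLC38A1 and -0.26 to 0.13 for SLC1A4.

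Same-numbered libraries correlated in their deviations from the group means with r of 0.07 in the first experiment. Between pairs of groups of the knockout experiment, r was 0.53, 0.43, 0.35, 0.16, 0.12 and, between the STING groups, 0.04. The sample titles name no shared batch or day. Because of this and of the lowest r, the replicate numbers were not taken to pair the samples, and the main fit holds no block. With the replicate number as a block, 1 member passed between genotypes with STING, SLC43A1 (limma adjusted p = 0.0183), and 3 averaged over both plasmids, SLC43A1, SLC6A9 and SLC3A2 (0.0082, 0.0213 and 0.0253); no other call of a member changed. Depth is unknown in both tables, and values under 1 FPKM cannot be read in the knockout table, which leaves SLC7A11 and SLC1A4 with little range.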
